A study of Mus musculus with 16 samples.

Results

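Transcription factor genes, 10 in all, of the AP-1, BATF and IRF families were followed across 4 sorted CD8 T-cell subsets: Batf, Batf3, Jun, Junb, Jund, Fos, Fosb, Fosl2, Irf4 and Irf8. They were taken by name, as probe sets annotated with exactly 1 gene symbol equal to one of these names, and where a gene had several such probe sets the one with the highest mean over all arrays was used. All 10 genes were measured, out of 22180 genes in the table. The cells came from spleens of female C57BL/6 mice that had received murine chronic lymphocytic leukemia (CLL) cells of Eµ-TCL1 donors 6 weeks earlier. Eµ-TCL1 mice carry a TCL1 transgene driven in B cells, and the recipients whose T cells were sorted are not labelled as carrying it. Lin- TCRb+ CD8+ cells were split by flow cytometry into 4 subsets. CD127hi cells were called naive where CD44low and memory where CD44hi. CD127low cells with CD44int-hi were called effectors and divided by their PD-1 level into PD-1int and PD-1hi cells. Each subset was hybridised to 4 Affymetrix Mouse Gene 2.0 ST arrays, numbered 1 to 4 in the labels, 16 arrays in all. All of the mice were leukemic, so the comparisons were between subsets and none was with leukemia-free mice. The labels give neither the age of the mice nor whether the arrays of a subset came from separate mice or from pooled cells, and the p-values below therefore measure the spread between these arrays, which may be technical.

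AP-1 is a dimer of basic leucine zipper (bZIP) proteins, typically a JUN protein (JUN, JUNB or JUND) with a FOS protein (FOS, FOSB or FOSL2), and it is formed downstream of antigen receptor and MAP kinase signals. BATF and BATF3 are short bZIP proteins without a transactivation domain of their own. They pair with JUN proteins, and these dimers bind DNA together with IRF4 or IRF8 at composite elements in which an AP-1 site lies beside an IRF site. In CD8 T cells, BATF and IRF4 are known for sustaining the effector programme after antigen receptor stimulation, and in chronic infection and tumours they have been tied to the exhausted state, whereas high JUN has been tied to resistance to it. BATF3 and IRF8 are best known for the development of cross-presenting dendritic cells, and IRF8 also acts in B cells and macrophages.

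The RefSeq promoter table (build GRCm38.p6) held 11 windows for the 10 genes, Irf8 having more than one start, and each window ran from 250 bases before the annotated start to 50 bases after it. The 250 bases before the start of Batf, Irf4 and Irf8, which were higher in both PD-1 subsets than in naive cells (Irf8 on the brighter of its probe sets), of Jun, which was lower, and of Fosl2, which was highest in memory cells, are printed here 5′ to 3′ on the strand of the gene. Capitals mark matches to the motifs searched.
Batf, chr12:85686470-85686719, plus strand: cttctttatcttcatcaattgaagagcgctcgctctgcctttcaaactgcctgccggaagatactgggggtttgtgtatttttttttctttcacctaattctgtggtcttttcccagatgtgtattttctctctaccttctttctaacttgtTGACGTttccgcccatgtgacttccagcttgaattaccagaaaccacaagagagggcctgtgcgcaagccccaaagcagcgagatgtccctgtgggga
Irf4, chr13:30748983-30749232, plus strand: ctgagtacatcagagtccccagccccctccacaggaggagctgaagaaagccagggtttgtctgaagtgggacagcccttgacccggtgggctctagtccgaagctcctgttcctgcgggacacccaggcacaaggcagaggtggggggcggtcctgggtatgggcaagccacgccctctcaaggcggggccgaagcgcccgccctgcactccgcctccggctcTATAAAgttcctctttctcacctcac
Irf8, chr8:120736108-120736357, plus strand: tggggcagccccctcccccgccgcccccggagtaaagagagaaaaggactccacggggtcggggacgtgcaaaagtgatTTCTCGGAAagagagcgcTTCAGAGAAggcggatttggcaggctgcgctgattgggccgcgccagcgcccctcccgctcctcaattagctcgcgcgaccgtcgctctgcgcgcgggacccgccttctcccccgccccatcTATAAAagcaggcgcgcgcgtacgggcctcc
Jun, chr4:95052223-95052472, minus strand: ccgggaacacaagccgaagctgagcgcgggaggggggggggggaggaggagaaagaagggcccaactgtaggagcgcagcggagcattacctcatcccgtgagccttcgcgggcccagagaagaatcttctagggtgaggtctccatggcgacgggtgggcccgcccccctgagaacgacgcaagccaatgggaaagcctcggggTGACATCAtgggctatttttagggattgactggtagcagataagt
Fosl2, chr5:32136222-32136471, plus strand: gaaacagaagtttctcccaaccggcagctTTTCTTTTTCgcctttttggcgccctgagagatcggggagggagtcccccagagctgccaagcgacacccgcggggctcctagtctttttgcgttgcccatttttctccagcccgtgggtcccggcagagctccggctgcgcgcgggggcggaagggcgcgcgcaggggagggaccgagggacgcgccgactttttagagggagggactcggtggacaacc

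The motifs were picked after these windows had been looked at and were searched on both strands, in the full windows of these genes and of all 32851 windows of the same length in the table. The capitals in the Jun promoter are TGACATCA, a variant of the AP-1 and ATF site, 45 bases before the start, which 3.62% of all windows contained. In the Batf promoter they are TGACGT, the core of the cyclic AMP response element, 98 bases before the start, which was also found in the Fos window and in 7.51% of all windows. Those in the Fosl2 promoter are a tandem IRF site, a pair of GAAA repeats with 2 bases between them, read on the opposite strand 221 bases before the start and present in 3.44% of all windows. In the Irf8 promoter they are a pair of STAT-type sites, TTCNNNGAA, 171 and 153 bases before the start (8.30% of all windows, and also in the Batf3 window), and a TATA box, TATAAA. The capitals in the Irf4 promoter are a TATA box as well, which 4 of the 11 windows and 13.6% of all windows contained. The consensus AP-1 site TGANTCA, which overlaps the composite elements, was in 7.81% of all windows and in 0 of the 11. The composite AP-1 and IRF elements, in which GAAA follows TGANTCA after 4 bases or directly precedes it, were in 0.119% and 0.125% of all windows and in 0 of the 11. A match is a description of the letters in the window, and binding was not measured here.

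Values are given on the authors' log2 scale, on which each added unit is a doubling of signal. Array medians lay between 6.39 and 6.49, so the arrays were on a common scale, and the number of arrays limits the precision. Differences were tested with limma across all 22180 genes, and a gene is said to have risen or fallen where its Benjamini-Hochberg adjusted p was under 0.05 in that comparison. Errors after ± are SDs over 4 arrays for a mean and standard errors for a difference. The gates were visible in the arrays, since Pdcd1, encoding PD-1, averaged 6.80 ± 0.30 in naive and 7.10 ± 0.10 in memory cells, and 10.12 ± 0.31 in PD-1int and 11.40 ± 0.15 in PD-1hi cells. Il7r, encoding CD127, averaged 12.97, 12.57, 7.49 and 4.91 in the same order. The mean of 10 measured CD8 T-cell markers lay between 11.74 and 12.07 on every array. In arrays of sorted populations, fewer cells that express a gene and less RNA per cell cannot be told apart.

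Measured against naive cells, 5 of the 10 genes differed in memory cells (3 higher and 2 lower, where 11.7% of all genes differed, 6.70% higher and 5.02% lower). In PD-1int cells 7 differed (6 higher and 1 lower, against 22.7% of all genes, 11.9% higher and 10.8% lower). In PD-1hi cells 6 differed (5 higher and 1 lower, against 27.1% of all genes, 13.4% higher and 13.7% lower). PD-1int cells differed from memory cells in 4 of the 10 genes, all higher (background 16.2%, 8.49% higher and 7.66% lower). PD-1hi cells differed from memory cells in 5, of which 4 were higher and 1 lower (background 21.9%, 10.8% higher and 11.1% lower). Between the PD-1 subsets, 1 gene passed, Batf, which was higher in PD-1hi cells (background 3.31%, 1.37% higher and 1.94% lower). The median difference over the 10 genes was 0.12, 0.50 and 0.44 for memory, PD-1int and PD-1hi against naive cells, beside -0.02, -0.03 and -0.01 over all genes. The 3 comparisons with naive cells share the naive arrays and are not independent of each other.

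**Figure D1:**
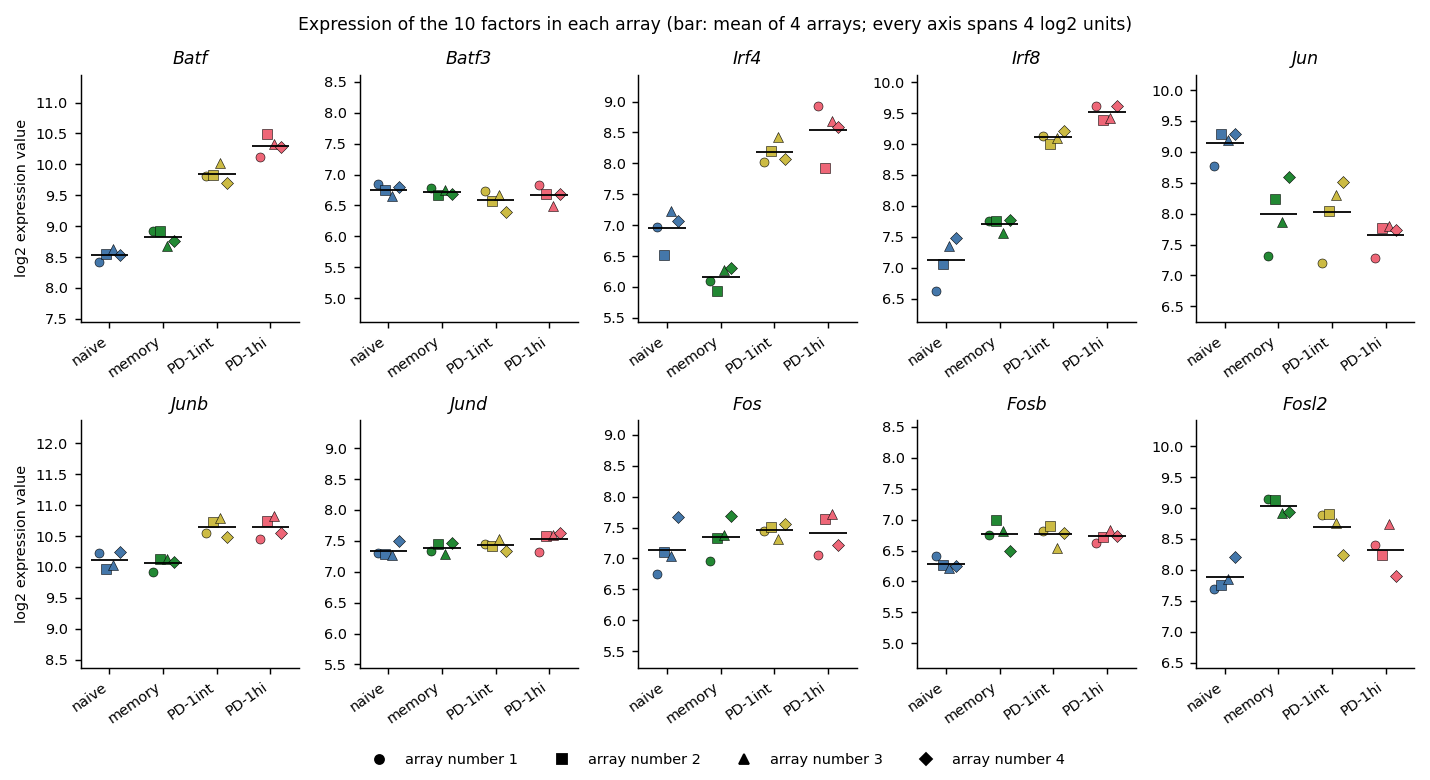
Log2 expression value (vertical axis) of each of the 10 genes in the 4 subsets (horizontal axis); each point is 1 array, its shape gives the array number, and the bar is the mean of 4 arrays. Batf climbs from a mean of 8.54 in naive to 10.30 in PD-1hi cells with no overlap between any subsets, Irf4 is lowest in memory cells at 6.15, and Jun is highest in naive cells at 9.14.

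Batf was higher in both PD-1 subsets than in naive or memory cells and was the 1 member that passed between the PD-1 subsets. Its values on arrays 1 to 4 were 8.41, 8.55, 8.64 and 8.54 in naive cells and 8.91, 8.92, 8.67 and 8.76 in memory cells. They were 9.81, 9.84, 10.03 and 9.70 in PD-1int cells and 10.12, 10.49, 10.32 and 10.28 in PD-1hi cells. The 4 subsets were thus ordered naive, memory, PD-1int, PD-1hi without any overlap between their arrays. Batf rose over naive cells by 1.31 ± 0.09 in PD-1int cells (2.48-fold, limma adjusted p = 6.06e-09) and by 1.77 ± 0.09 in PD-1hi cells (3.41-fold, limma adjusted p = 7.48e-11). Over memory cells the rise was 1.03 ± 0.09 in PD-1int (limma adjusted p = 3.94e-07) and 1.49 ± 0.09 in PD-1hi cells (limma adjusted p = 1.78e-09). PD-1hi cells exceeded PD-1int cells by 0.46 ± 0.09 (1.38-fold, limma adjusted p = 0.00926), and this call held with each of the 8 arrays left out in turn. The neighbouring pair at the low end, memory and naive, differed by 0.28 ± 0.09 (95% interval 0.09 to 0.48), which did not pass over all genes (limma adjusted p = 0.0607). That difference passed without memory array 3 (limma adjusted p = 0.0419).

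Batf3, the close paralogue of Batf, passed in no comparison. Its arrays read 6.84, 6.74, 6.65 and 6.79 in naive, 6.78, 6.67, 6.74 and 6.68 in memory, 6.73, 6.57, 6.67 and 6.4 in PD-1int and 6.83, 6.69, 6.49 and 6.68 in PD-1hi cells. The 4 subsets overlapped, and none of the 6 differences passed. The PD-1hi mean differed from the naive mean by -0.09 (95% interval -0.27 to 0.10, limma adjusted p = 0.554), and the PD-1int mean by -0.17 (95% interval -0.35 to 0.02, limma adjusted p = 0.209).

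Irf4, which encodes a partner of BATF whose amount is known to track the strength of antigen receptor stimulation, was lowest in memory cells and highest in both PD-1 subsets. Its naive arrays read 6.97, 6.52, 7.24 and 7.08, and its memory arrays 6.10, 5.94, 6.27 and 6.31. The PD-1int arrays read 8.02, 8.20, 8.42 and 8.08, and the PD-1hi arrays 8.94, 7.93, 8.69 and 8.58. Memory, naive and the pair of PD-1 subsets formed 3 separate levels, while PD-1hi array 2, the lowest of its subset, lay below all 4 PD-1int arrays. Irf4 fell by 0.79 ± 0.18 from naive to memory cells (limma adjusted p = 0.00602). It rose over naive cells by 1.23 ± 0.18 in PD-1int cells (2.35-fold, limma adjusted p = 4.47e-05) and by 1.59 ± 0.18 in PD-1hi cells (3.00-fold, limma adjusted p = 1.58e-06). Set against memory cells, the rise was larger in size, 2.02 ± 0.18 in PD-1int (4.07-fold, limma adjusted p = 3.01e-07) and 2.38 ± 0.18 in PD-1hi cells (5.21-fold, limma adjusted p = 1.84e-08). The memory mean of 6.15 was below the array medians, where a value cannot be told from background, so the folds over memory cells hold for the signal only. The PD-1hi and PD-1int means, 8.53 and 8.18, differed by 0.36 (95% interval -0.03 to 0.74, limma adjusted p = 0.396), which did not pass.

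Irf8 was higher in both PD-1 subsets than in naive or memory cells on the brighter of its probe sets. The other probe set did not separate PD-1int from naive cells. On the brighter of its probe sets, the naive arrays read 6.63, 7.06, 7.35 and 7.48, and the memory arrays 7.75, 7.76, 7.57 and 7.76. The PD-1int arrays read 9.13, 9.0, 9.10 and 9.21, and the PD-1hi arrays 9.62, 9.39, 9.43 and 9.61. The subsets followed the same order as for Batf and did not overlap. Irf8 rose over naive cells by 1.98 ± 0.14 in PD-1int (3.94-fold, limma adjusted p = 3.35e-09) and by 2.38 ± 0.14 in PD-1hi cells (5.21-fold, limma adjusted p = 1.88e-10). It rose over memory cells by 1.40 ± 0.14 in PD-1int (limma adjusted p = 7.97e-07) and by 1.80 ± 0.14 in PD-1hi cells (limma adjusted p = 1.59e-08). With the mean of both Irf8 probe sets, these rises still passed and were smaller, 1.06 and 1.39 over naive cells (limma adjusted p = 3.37e-09 and 6.14e-11) and 0.87 and 1.20 over memory cells (limma adjusted p = 1.33e-07 and 1.12e-09). The difference between memory and naive cells, 0.58 ± 0.14, passed (limma adjusted p = 0.00721), but was 0.20 with the mean of both Irf8 probe sets (limma adjusted p = 0.0963) and 0.40 without array 1 of every subset (limma adjusted p = 0.0585). The second probe set averaged 6.18, 6.00, 6.33 and 6.59 in naive, memory, PD-1int and PD-1hi cells, so it was lower in memory than in naive cells. PD-1hi exceeded PD-1int cells by 0.40 ± 0.14 (95% interval 0.12 to 0.69) with no overlapping arrays, which did not pass over all genes (limma adjusted p = 0.134) and passed when only the 8 arrays of those subsets were fitted (limma adjusted p = 0.0358) or both probe sets were averaged (limma adjusted p = 0.0149).

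Because Irf8 and Irf4 are also expressed by B cells, plasma cells, dendritic cells and macrophages, the markers of those cells were read on the same arrays. The mean of 14 B-cell and CLL markers lay between 5.95 and 6.17 in naive, 6.09 and 6.30 in memory, 5.95 and 6.12 in PD-1int and 5.87 and 6.08 in PD-1hi arrays. Of these, Cd22 rose in PD-1hi against naive cells and Cd79b and Bank1 fell, and Ms4a1 and Cd79a averaged 5.40 and 6.16 in PD-1hi against 5.35 and 6.32 in naive cells, neither passing. Among 5 plasma cell markers, 0 passed with limma in any of the 6 comparisons, and Jchain averaged 5.04 in naive and 5.15 in PD-1hi cells. The mean of 14 myeloid markers was 5.77 to 5.99 in naive, 5.85 to 5.95 in memory, 6.34 to 6.35 in PD-1int and 6.22 to 6.46 in PD-1hi arrays. In both PD-1 subsets 2 of these 14 rose over naive cells and 0 fell, where 22.7% and 27.1% of all genes passed. These were Cd68, by 2.86 and 3.05, and Itgam, by 1.55 and 1.03. Csf1r averaged 6.33 in naive and 6.58 in PD-1hi cells and did not pass. Lyz2 was 0.50 higher in PD-1hi than in naive cells (limma adjusted p = 0.0574, and 0.0393 with the replicate number as a block). In PD-1hi over memory cells Lyz2 rose by 0.53 (limma adjusted p = 0.0492), a call lost in 6 of 8 fits without 1 array. Against memory cells 2 of the 14 rose in PD-1int and 3 in PD-1hi cells, and 0 fell (all genes 16.2% and 21.9%). The mean of 13 dendritic cell markers lay between 6.88 and 7.22 on all arrays. Over naive cells 2 rose and 1 fell in memory, 2 rose and 3 fell in PD-1int, and 3 rose and 3 fell in PD-1hi cells (all genes 11.7%, 22.7% and 27.1%). Itgax was among those that rose in both PD-1 subsets, and Ccr9 and Bst2 were among those that fell. PD-1hi minus memory was -0.54 for Itgax, which did not pass (limma adjusted p = 0.158). Flt3 averaged 5.68, 5.70, 5.71 and 5.83 and Zbtb46 6.34, 6.39, 6.33 and 6.30 in naive, memory, PD-1int and PD-1hi cells, without passing in any comparison. The mean of 7 NK cell markers was 5.79 to 5.88 in naive, 6.37 to 6.71 in memory, 6.35 to 6.55 in PD-1int and 6.09 to 6.34 in PD-1hi arrays, an order it shared with Fosl2. Of the 7, 5 rose and 0 fell in memory over naive cells (all genes 11.7%), and Ncr1 averaged 5.84 in both and did not pass. Over naive cells 2 of these NK markers rose and 1 fell in PD-1int, and 1 rose and 0 fell in PD-1hi cells (22.7% and 27.1%). Against memory cells 1 rose and 2 fell in PD-1int, and 1 rose and 3 fell in PD-1hi cells (16.2% and 21.9%). Between the PD-1 subsets 0 rose and 1 fell (3.31%). The mean of 7 CD4 and regulatory T-cell markers was 7.16 to 7.31 in naive, 6.57 to 6.69 in memory, 7.10 to 7.18 in PD-1int and 7.27 to 7.44 in PD-1hi arrays, lowest in memory and highest in PD-1hi cells as was Irf4. Over naive cells 1 of the 7 rose and 3 fell in memory cells. In PD-1int cells 1 rose and 1 fell, and in PD-1hi cells 2 rose and 0 fell (all genes 11.7%, 22.7% and 27.1%). Against memory cells 2 rose in PD-1int and 3 in PD-1hi cells (16.2% and 21.9%), and 0 fell. Between the PD-1 subsets 2 were higher in PD-1hi cells (3.31%). Zbtb7b rose over naive cells in all 3 subsets (0.28 in PD-1hi, limma adjusted p = 0.0247). Each of these calls was lost in 5 of 8 fits without 1 array. The defining markers Cd4 and Foxp3 averaged 5.95 and 6.39 in naive and 6.05 and 6.17 in PD-1hi cells and passed in no comparison. The mean of 5 erythroid and platelet markers lay between 6.56 and 7.24 on all arrays, and 1 of them, Ppbp, rose in PD-1hi over naive cells. Arrays give no true zero for a marker. The myeloid mean moved with Irf8 and Irf4 in the PD-1 subsets, and the NK mean with Fosl2. The CD4 and regulatory T-cell mean shared its lowest and highest subset with Irf4. Between naive and PD-1int cells, where Irf4 rose, that mean went from 7.21 to 7.14. The part of these markers in the differences of Irf8, Irf4 and Fosl2 was not tested.

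**Figure D2:**
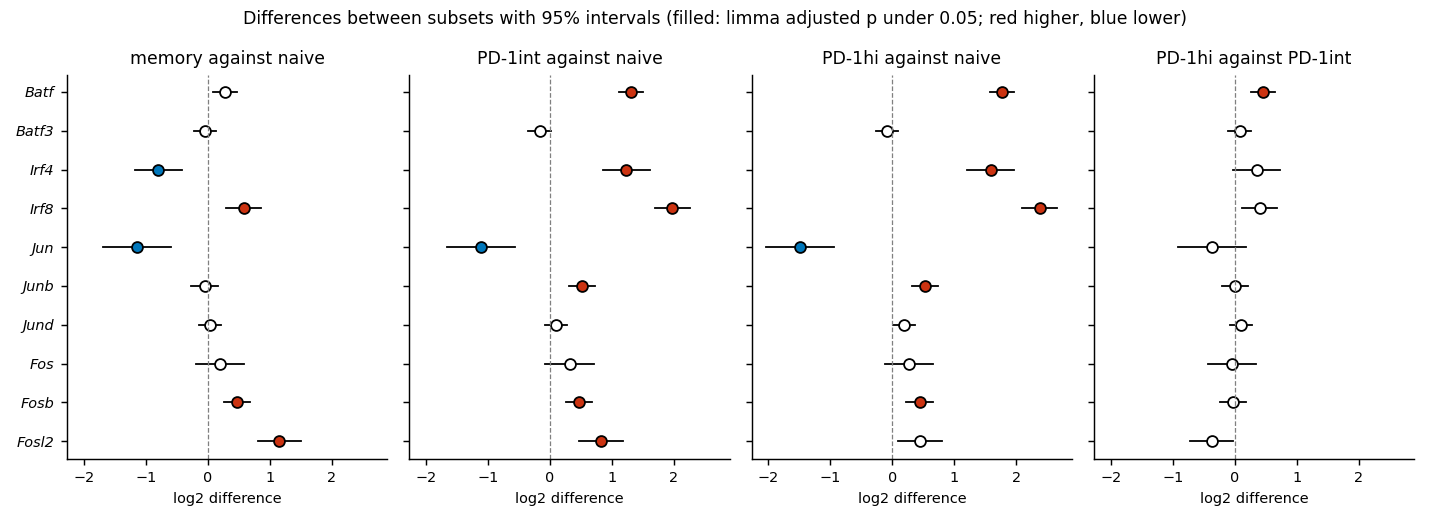
Log2 differences of the 10 genes (rows) in 4 of the 6 comparisons (panels), with points for the estimates and bars for 95% intervals; filled points passed at a limma adjusted p under 0.05, red for higher and blue for lower. Irf8 (brighter probe set), Batf and Irf4 lie farthest to the right in both PD-1 subsets against naive cells, Jun lies to the left in all 3 comparisons with naive cells, and Batf is the filled point between the PD-1 subsets, at 0.46.

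Within the JUN family, Jun fell from naive cells in all 3 other subsets, Junb rose in both PD-1 subsets and Jund passed in no comparison. Jun, the founding AP-1 subunit, read 8.77, 9.29, 9.19 and 9.29 in naive cells. Its memory arrays read 7.32, 8.23, 7.86 and 8.60, its PD-1int arrays 7.21, 8.05, 8.31 and 8.51, and its PD-1hi arrays 7.29, 7.77, 7.79 and 7.74. Every naive array lay above every array of the other subsets, which overlapped with each other. Jun fell from naive cells by 1.13 ± 0.26 in memory (2.19-fold, limma adjusted p = 0.00648), by 1.12 ± 0.26 in PD-1int (2.17-fold, limma adjusted p = 0.00355) and by 1.49 ± 0.26 in PD-1hi cells (2.81-fold, limma adjusted p = 0.0002). The PD-1hi mean of 7.65 was below the PD-1int mean of 8.02 and the memory mean of 8.0, with differences of -0.37 and -0.35, and neither passed (limma adjusted p = 0.593 and 0.421). The 95% interval of the PD-1hi minus PD-1int difference ran from -0.92 to 0.18. That difference was -0.64 without PD-1int array 1 and -0.21 without PD-1int array 4, and PD-1hi minus memory was -0.58 without memory array 1, -0.16 without memory array 4 and -0.24 without PD-1hi array 1, none of them passing.

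Jun was also the most variable of the 10 genes within subsets, with a residual SD of 0.43 against a median of 0.15 over all genes, and 1.07% of genes had a larger one. Array 1 was the lowest in each of the 4 subsets, at -0.37, -0.68, -0.81 and -0.36 from the naive, memory, PD-1int and PD-1hi means. Over all 22180 genes, 480 (2.16%) had the same array number lowest in all 4 subsets, and for 115 (0.518%) that number was 1. Without array 1 of every subset, the differences from naive cells were -1.03 in memory (limma adjusted p = 0.000848), -0.97 in PD-1int (limma adjusted p = 0.000488) and -1.49 in PD-1hi cells (limma adjusted p = 6.93e-06). In that fit PD-1hi minus memory was -0.46 (limma adjusted p = 0.0581) and PD-1hi minus PD-1int -0.52 (limma adjusted p = 0.158). With the replicate number as a block, the limma adjusted p of these differences was 0.0919 and 0.21. Fos deviated by -0.40, -0.39, -0.02 and -0.35 on the same arrays 1. The mean of 31 other immediate early and handling-response genes was 8.37 on naive array 1 and 8.42 to 8.54 on the other naive arrays, 8.34 and 8.39 to 8.53 in memory, 8.89 and 8.83 to 8.98 in PD-1int, and 8.94 and 9.0 to 9.12 in PD-1hi cells. It was lowest on array 1 in naive, memory and PD-1hi cells but not in PD-1int cells, and its part in the low Jun values was not tested.

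**Figure D3:**
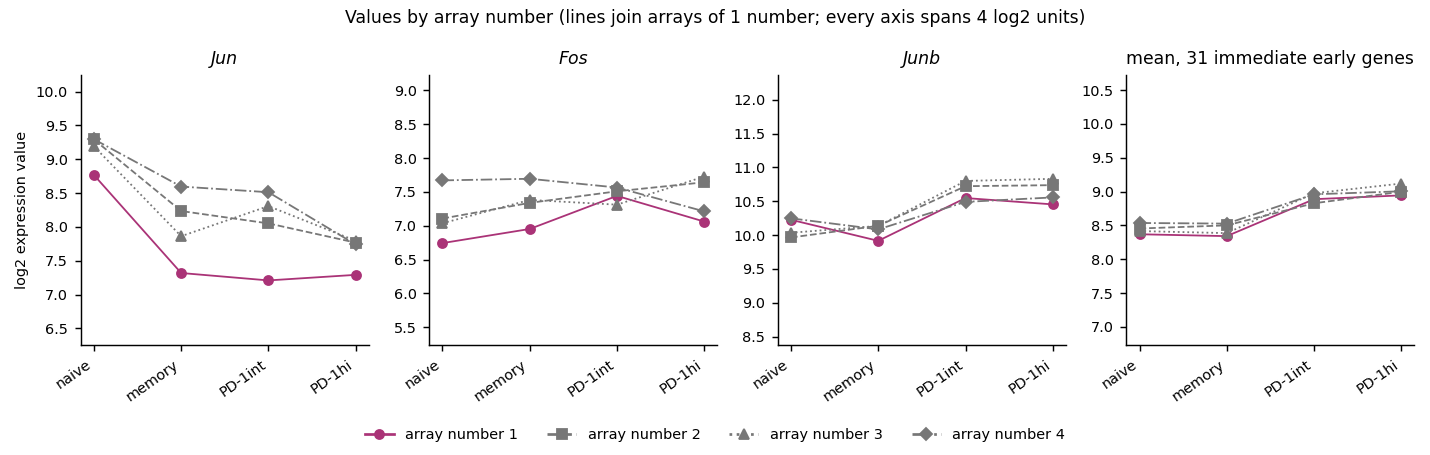
Log2 expression value (vertical axis) of Jun, Fos and Junb and the mean of 31 other immediate early and handling-response genes, by subset (horizontal axis); lines join arrays that carry the same number, which the labels do not tie to 1 mouse. Array 1 (purple) is the lowest for Jun in all 4 subsets, at 8.77, 7.32, 7.21 and 7.29, and is not the lowest for Junb in naive or PD-1int cells.

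Junb, whose product can replace or oppose JUN in the dimer and pairs with BATF in T cells, was higher in the PD-1 subsets than in naive and memory cells. Naive arrays read 10.23, 9.96, 10.03 and 10.25 and memory arrays 9.91, 10.14, 10.13 and 10.08. PD-1int arrays read 10.55, 10.72, 10.80 and 10.49 and PD-1hi arrays 10.45, 10.74, 10.83 and 10.56. All 8 PD-1 arrays lay above all 8 naive and memory arrays. Junb rose over naive cells by 0.52 ± 0.10 in PD-1int (1.44-fold, limma adjusted p = 0.000708) and by 0.53 ± 0.10 in PD-1hi cells (limma adjusted p = 0.000484), and over memory cells by 0.57 ± 0.10 and 0.58 ± 0.10 (limma adjusted p = 0.000509 and 0.000269). Within each pair the subsets differed by less than their spread, with 95% intervals of -0.21 to 0.22 for PD-1hi minus PD-1int and -0.26 to 0.16 for memory minus naive cells. Jund, the most constitutively expressed of the family, averaged 7.34 ± 0.10 in naive cells, 7.38 ± 0.09 in memory cells, 7.43 ± 0.08 in PD-1int cells and 7.53 ± 0.14 in PD-1hi cells. None of its 6 differences passed; the widest was PD-1hi against naive, 0.19 ± 0.08 (95% interval 0.01 to 0.37, limma adjusted p = 0.109). It passed without naive array 4 (limma adjusted p = 0.0478), without PD-1hi array 1 (limma adjusted p = 0.0244) and with the mean of both Jund probe sets (0.29, limma adjusted p = 0.0324).

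Of the FOS family, Fosl2 (also called FRA2) changed most, and its highest level was in memory cells. Naive arrays read 7.69, 7.76, 7.84 and 8.21 and memory arrays 9.14, 9.12, 8.93 and 8.94. PD-1int arrays read 8.89, 8.90, 8.76 and 8.23 and PD-1hi arrays 8.40, 8.24, 8.74 and 7.91. Memory arrays lay above all others, PD-1int arrays above all naive arrays, and PD-1hi arrays overlapped both PD-1int and naive arrays. Fosl2 rose over naive cells by 1.16 ± 0.17 in memory (2.23-fold, limma adjusted p = 9.96e-05) and by 0.82 ± 0.17 in PD-1int cells (1.76-fold, limma adjusted p = 0.00116), and was lower in PD-1hi than in memory cells (-0.71 ± 0.17, limma adjusted p = 0.00371). PD-1hi cells differed from naive cells by 0.44 ± 0.17 (95% interval 0.09 to 0.80, limma adjusted p = 0.0584), and this difference passed without naive array 4 (limma adjusted p = 0.0228) or without PD-1hi array 4 (limma adjusted p = 0.0124). Neighbours in the order memory, PD-1int, PD-1hi did not differ at the threshold: PD-1int minus memory was -0.34 (95% interval -0.69 to 0.01, limma adjusted p = 0.221) and PD-1hi minus PD-1int was -0.37 (95% interval -0.73 to -0.02, limma adjusted p = 0.314).

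Fosb was lower in naive cells than in the other 3 subsets. Its arrays read 6.42, 6.27, 6.22 and 6.25 in naive, 6.76, 7.0, 6.81 and 6.48 in memory, 6.82, 6.89, 6.55 and 6.78 in PD-1int and 6.63, 6.71, 6.83 and 6.74 in PD-1hi cells. Naive arrays overlapped with none of the others, and the other 3 subsets overlapped with each other. Fosb rose over naive cells by 0.47 ± 0.10 in memory (1.39-fold, limma adjusted p = 0.00364), by 0.47 ± 0.10 in PD-1int (limma adjusted p = 0.00174) and by 0.44 ± 0.10 in PD-1hi cells (limma adjusted p = 0.00242). The signal was low, with 50.6% of genes having a lower mean over all arrays. The naive mean of 6.29 was below the array medians, so the rises over naive cells hold for the signal only.

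Fos, the classical immediate early gene, did not separate the subsets. Naive arrays read 6.74, 7.11, 7.04 and 7.67, memory arrays 6.95, 7.34, 7.38 and 7.69, PD-1int arrays 7.44, 7.51, 7.31 and 7.56, and PD-1hi arrays 7.06, 7.64, 7.73 and 7.21. All 4 subsets overlapped, and none of the 6 differences passed. The widest, PD-1int against naive, was 0.32 ± 0.19 (95% interval -0.07 to 0.71, limma adjusted p = 0.269), and it passed without naive array 4, the highest naive array (0.49, limma adjusted p = 0.0477). Fos had a residual SD of 0.30, which 5.05% of genes exceeded. On chromosome 12 of the RefSeq annotation, Jdp2 is the 1 protein-coding gene between Fos and Batf, and it encodes a bZIP protein that pairs with JUN and represses AP-1 targets. Jdp2 averaged 5.66 in naive and 5.91 in memory cells, and 6.65 in PD-1int and 6.58 in PD-1hi cells, and rose over naive cells by 0.99 ± 0.11 in PD-1int (limma adjusted p = 1.33e-06) and by 0.92 ± 0.11 in PD-1hi cells (limma adjusted p = 2.35e-06). The naive and memory means of Jdp2 were below the array medians, so the size of its rises holds for the signal only. Along this stretch Jdp2 and Batf thus rose in both PD-1 subsets, and Fos did not pass.

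The wider bZIP family was read from a list of 35 other AP-1, ATF, MAF and related genes, of which 31 were measured. Over naive cells, 3 rose and 1 fell in memory, 9 rose and 5 fell in PD-1int, and 11 rose and 8 fell in PD-1hi cells, beside 11.7%, 22.7% and 27.1% of all genes in either direction. In memory cells the 4 of 31 was close to that background. The median difference of the list was 0.03, 0.16 and 0.12 in these comparisons, beside -0.02, -0.03 and -0.01 over all genes. Maf, encoding c-MAF, which promotes Il10 expression in T cells, was the member with the widest rise, from a mean of 5.31 in naive to 9.45 in PD-1int and 10.37 in PD-1hi cells (4.13 ± 0.20 and 5.06 ± 0.20, limma adjusted p = 2.96e-11 and 1.45e-12). Its naive mean was below the array medians, so the size of these rises holds for the signal only. Atf6, a sensor of endoplasmic reticulum stress, rose by 1.92 ± 0.11 in memory cells, 3.07 ± 0.11 in PD-1int and 3.27 ± 0.11 in PD-1hi cells. Nfil3 rose by 1.02 ± 0.15 in PD-1hi cells (limma adjusted p = 3.42e-05). Bach2, a repressor that occupies AP-1 sites and restrains effector differentiation, differed from naive cells by -1.20 in memory cells, -2.03 in PD-1int and -2.65 in PD-1hi cells (SE 0.12 each, largest limma adjusted p = 1.46e-06). Nfe2l2, encoding the oxidative stress factor NRF2, fell by 0.57 ± 0.14 in PD-1int and by 1.02 ± 0.14 in PD-1hi cells. Between the PD-1 subsets 1 of the 31 rose, Maf (0.93 ± 0.20, limma adjusted p = 0.0131), and 2 fell, Bach2 (-0.62 ± 0.12, limma adjusted p = 0.00703) and Mafk (-0.60 ± 0.08, limma adjusted p = 0.000333). Without PD-1hi array 3 that count of 3 became 5, and without array 1 of every subset Bach2 no longer passed (limma adjusted p = 0.0857).

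Among 14 other IRF genes and IRF cofactors, 12 were measured. In memory against naive cells 0 rose and 5 fell (median difference -0.14, over all genes -0.02), among them Irf1, an interferon-induced activator (-0.67 ± 0.10, limma adjusted p = 0.00013), and Irf9, a subunit of the interferon-activated ISGF3 complex (-0.54 ± 0.07, limma adjusted p = 4.14e-05). That count of 5 was 3 without naive array 2, naive array 3 or memory array 2, and 2 without memory array 1, where Irf7 was among those lost (limma adjusted p = 0.0518). Over all genes, the 2601 calls became 2295, 2132, 2189 and 2091 in these fits. In PD-1int against naive cells 3 rose and 2 fell, and in PD-1hi against naive cells 3 rose and 3 fell, where 22.7% and 27.1% of all genes passed (11.7% in memory cells). Ikzf3, encoding Aiolos, a zinc finger protein that partners with IRF4, rose by 0.85 ± 0.07 in PD-1int and 0.99 ± 0.07 in PD-1hi cells (limma adjusted p = 5.93e-08 and 5.42e-09). Irf2, a competitor of IRF1 for DNA, rose by 0.43 ± 0.09 and 0.81 ± 0.09. Irf2bp2, a cofactor of IRF2 and NFAT, fell in both (-0.69 ± 0.08 and -1.16 ± 0.08), as did Irf9 (-0.40 ± 0.07 and -0.93 ± 0.07). Between the PD-1 subsets 1 rose and 3 fell: Irf7, the interferon-induced amplifier of type I interferon, differed by -0.87 ± 0.13 (limma adjusted p = 0.000573), Irf9 by -0.54 ± 0.07 (limma adjusted p = 0.000228) and Irf2bp2 by -0.47 ± 0.08 (limma adjusted p = 0.00243, and 0.0687 with the mean of its probe sets). The gene that rose was Irf2 (0.38 ± 0.09, limma adjusted p = 0.0313), and it was lost in 7 of the 8 fits that left out 1 array (limma adjusted p = 0.107 without PD-1int array 1). So the IRF family split by member, with Irf4, Irf8 and Irf2 higher and Irf7 (-1.07 ± 0.13) and Irf9 lower in PD-1hi than in naive cells.

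**Figure D4:**
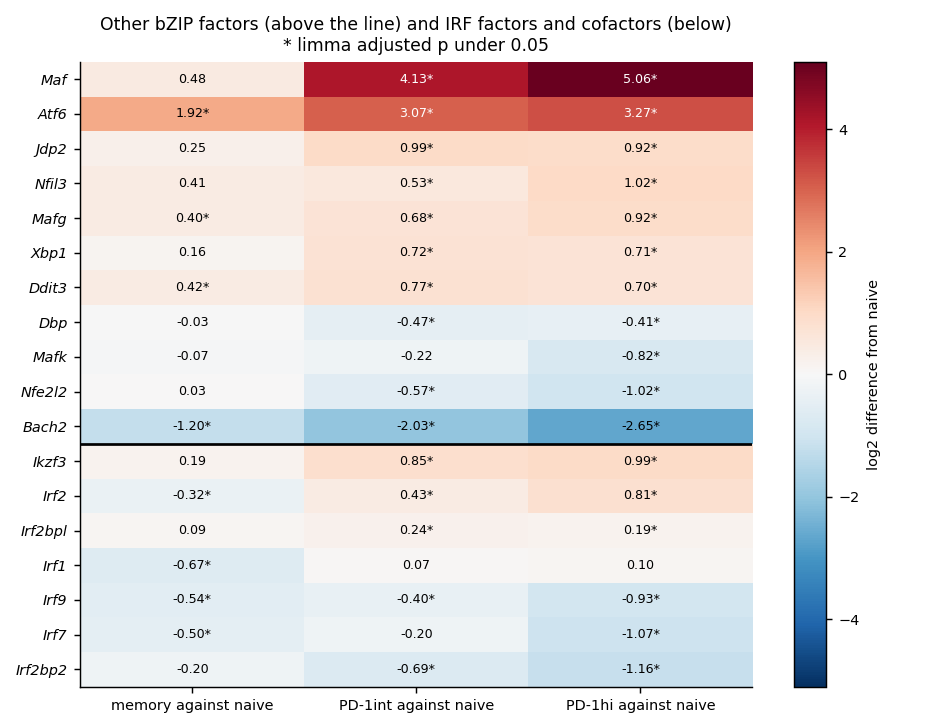
Log2 difference from naive cells (colour and printed value) of 11 other bZIP genes and 7 other IRF genes and cofactors (rows) in memory, PD-1int and PD-1hi cells (columns); an asterisk marks a limma adjusted p under 0.05. Maf reaches 5.06 and Bach2 -2.65 in PD-1hi cells, and Irf1 (-0.67) and Irf9 (-0.54) are lower in memory cells.

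Upstream of these factors, 13 of 15 NFAT and calcineurin genes were measured. NFAT proteins are activated by calcium and calcineurin and bind DNA together with AP-1. Over naive cells 2 rose and 1 fell in memory, 2 rose and 2 fell in PD-1int, and 3 rose and 1 fell in PD-1hi cells. Over all genes 11.7%, 22.7% and 27.1% passed, and the 4 of 13 in each PD-1 subset was near that background. Nfatc2 (NFAT1) rose by 0.86 ± 0.08, 0.71 ± 0.08 and 0.58 ± 0.08 in memory, PD-1int and PD-1hi cells, and Nfatc1 (NFAT2) by 0.46 ± 0.10 in PD-1int and 0.66 ± 0.10 in PD-1hi cells. Between the PD-1 subsets 0 of the 13 passed with limma. Of 30 genes of the MAP kinase routes that induce and phosphorylate AP-1 subunits, 26 were measured. There 3 rose and 3 fell in memory, 6 rose and 2 fell in PD-1int, and 4 rose and 5 fell in PD-1hi against naive cells, beside the same 11.7%, 22.7% and 27.1% of all genes. The 8 calls in PD-1int cells became 5 without naive array 2, where the calls over all genes went from 5037 to 4674. Mapk11, encoding p38 beta, rose by 1.70 ± 0.19 and Map3k8, encoding the kinase TPL2, by 1.46 ± 0.12 in memory cells, where Map3k5 fell by 0.76. In PD-1int and PD-1hi cells Elk3 rose by 0.92 ± 0.11 and 0.96 ± 0.11 and Map2k3 by 0.83 ± 0.16 and 1.13 ± 0.16, while Rps6ka3 fell (-0.75 and -0.97). Mapk8, encoding the JUN kinase JNK1, fell by 0.61 in PD-1hi cells (limma adjusted p = 0.00904, and 0.0513 without array 1 of every subset). Between the PD-1 subsets 1 of the 26 passed, Elk4, and 0 did without PD-1int array 1, PD-1int array 4, PD-1hi array 3 or PD-1hi array 4.

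Of genes induced by T-cell activation, 30 were listed as carrying AP-1, BATF or IRF4 sites, and all 30 were measured. Whether each of them carries such a site was not checked here. Over naive cells 8 rose and 2 fell in memory, 17 rose and 2 fell in PD-1int, and 16 rose and 4 fell in PD-1hi cells, where 11.7%, 22.7% and 27.1% of all genes passed. The medians of the list were 0.26, 0.57 and 0.53, beside -0.02, -0.03 and -0.01 over all genes. Gzmb, encoding the killer protease granzyme B, rose by 6.91 ± 0.17 in PD-1int and 7.01 ± 0.17 in PD-1hi cells, and Ccl3, a chemokine, by 5.50 ± 0.27 and 6.65 ± 0.27. Myc, a driver of growth, fell in both (-0.91 ± 0.19 and -1.56 ± 0.19), and Tnf, an effector cytokine, fell by 0.74 ± 0.13 in PD-1hi cells. Between the PD-1 subsets 8 rose and 4 fell. Tnfrsf9, the costimulatory receptor 4-1BB, was 1.32 ± 0.15 higher in PD-1hi cells (limma adjusted p = 3.89e-05) and Havcr2, the inhibitory receptor TIM-3, 1.30 ± 0.19 higher (limma adjusted p = 0.000518). Bcl6, a repressor that opposes effector programmes, differed by -0.88 ± 0.12 (limma adjusted p = 0.000336). The rise of Il10 was wider than those of Tnfrsf9 and Havcr2 (1.45, limma adjusted p = 0.00678), and Xcl1 fell by more than Bcl6 (-1.07, limma adjusted p = 0.0199). Neither of these passed without array 1 of every subset (limma adjusted p = 0.0602 and 0.147). The 12 calls became 4 without array 1 of every subset, a fit in which the calls over all genes fell from 734 to 303. The list was chosen with earlier results of these data known, so its share beside that of all genes is a description.

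Immediate early and handling-response genes, many of which like Jun and Fos are induced within minutes of stimulation or of tissue handling, were read as a further list of 31. The list is mixed and also holds genes such as Klf2 and Hspa8, so its counts and median are not those of rapidly induced genes alone. In memory against naive cells 4 rose and 6 fell, in PD-1int cells 12 rose and 6 fell, and in PD-1hi cells 12 rose and 7 fell, where 11.7%, 22.7% and 27.1% of all genes passed. The medians of the list were -0.12, 0.10 and -0.00, beside -0.02, -0.03 and -0.01 over all genes. Dusp5, a phosphatase of ERK, rose by 1.54 ± 0.12, 2.31 ± 0.12 and 2.62 ± 0.12, and Ppp1r15a fell (-0.59, -0.74 and -1.05, SE 0.14 each) in the same order. Nr4a2, an orphan receptor induced by antigen signals, rose by 2.94 ± 0.17 in PD-1int and 4.67 ± 0.17 in PD-1hi cells. The 10 calls between the PD-1 subsets (6 higher and 4 lower) became 5 without PD-1int array 1 or PD-1hi array 4, 6 without PD-1hi array 1 and 3 without array 1 of every subset. Over all genes, the 734 calls became 470, 474, 559 and 303 in these fits.

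**Figure D5:**
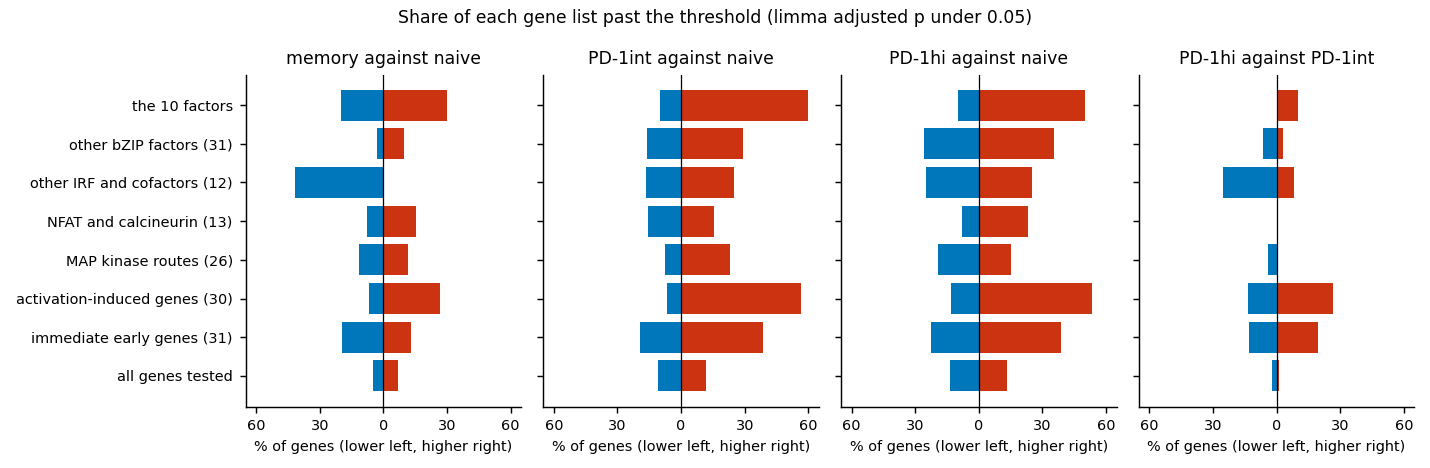
Percent of the measured genes of each list (rows, with the number measured) that were lower (blue, left) or higher (red, right) at a limma adjusted p under 0.05, in 4 comparisons (panels), with all 22180 genes in the bottom row. Of the 30 activation-induced genes 17 are higher in PD-1int cells, and between the PD-1 subsets, where 3.31% of all genes differ, 12 of those 30 and 0 of the 13 NFAT and calcineurin genes do.

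Genes whose profile over the 16 arrays was most like that of each factor were listed by Pearson r among about 3503 genes that varied by an SD of at least 0.3. The r is a description, since the 16 arrays share subsets and array numbers. Nearest to Batf were Lag3, an inhibitory receptor (r = 0.99), Hip1r (0.99) and the glucose transporter Slc2a3 (0.98). Nearest to Irf8 were Cd200r4 (r = 0.99), Prex1 (0.98) and Hip1 (0.98), and nearest to Irf4 were the cell-cycle phosphatase Cdc25b (0.96), Glcci1 (0.95) and Gtdc1 (0.95). Junb lay nearest to Elk3 (r = 0.97), Ctnnbip1 (0.96) and Mif4gd (0.96). For Jun the nearest genes were Klhl24 (r = 0.89), Abcc5 (0.88) and Cyp4f13 (0.87), which were likewise highest in naive cells. For Fosl2 they were Cdk5rap3 (r = 0.91), the kinase gene Sgk1 (0.91) and the chemokine gene Xcl1 (0.90), whose means were highest in memory cells. For Fosb they were Ahnak (r = 0.87), Cxcr5 (0.87) and Ctla2a (0.86). The highest r was 0.80 for Fos (Mtrf1), 0.79 for Jund (Cgrrf1) and 0.75 for Batf3 (Glce).

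Arrays of the compared subsets did not overlap for 6 of the 10 genes in memory against naive cells (15.7% of all genes), 7 in PD-1int against naive (23.6%) and 6 in PD-1hi against naive (25.9%). They did not overlap for 5 in PD-1int against memory (20.6%), 5 in PD-1hi against memory (23.9%) and 2, Batf and Irf8, between the PD-1 subsets (8.89%).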

How the data were processed

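Expression was measured in 16 arrays, 4 for each of 4 subsets. RNA was extracted with a column kit and labelled with a kit for small amounts, per the labels' protocols, and the arrays were processed with Affymetrix Power Tools, per the submitters' processing notes. The version, the summarisation method and the genome build are not stated in those sources. The deposited values are log2 expression values, 2.35 to 14.13, and were used as the authors deposited them. They carry no detection calls, so a low value cannot be told from background.

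Of 41345 probe sets, 23521 had exactly 1 gene symbol, 1814 several and 16010 none. The brightest of a gene's single-symbol probe sets stood for it, which gave 22180 genes, 1082 of them with several. All 16 arrays were fitted with limma 3.58.1 in R 4.3.3 (1 mean per subset, empirical Bayes, 12 residual degrees of freedom, no block). P-values were adjusted over the 22180 genes in each of 6 comparisons at a threshold of 0.05, and the median standard error was 0.10. The fit was tested on simulated data. The 10 genes and the gene lists were chosen with earlier results of these data known. Up to 3 genes per list, comparison and direction were named by largest difference among those that passed, and Jdp2 also for its position. Within the 8 marker lists, genes were chosen for naming by what they mark. Alternatives were the replicate number as a block, the 8 arrays compared alone, averaging all probe sets of a gene, dropping the 40% of genes with the dimmest signal, array weights, median centring, quantile normalization, trend with robust moderation and each array left out; leaving out array 1 of every subset was added after seeing the data.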

Additional observations from a re-analysis of the deposited data

Results flagged for a closer look

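In 2 of the 40 groups of 4 arrays (10 genes in 4 subsets) 1 array stood apart by Dixon's test at the 95% level, and chance gives about 1 in 20 groups. For Jun in PD-1hi cells, array 1 was lowest at 7.29, against 7.74 for the nearest array and a subset mean of 7.65. For Irf8 in memory cells, array 3 was lowest at 7.57, against 7.75 for the nearest array and a subset mean of 7.71.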

How the results depend on the processing

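The 10 genes gave 60 differences. Of the 28 that passed, 27 passed in every alternative run, and 1 (Irf8 in memory against naive cells) was lost in 2 of them. Of the 32 that did not pass, 5 passed in at least 1 alternative: Batf in memory, and Fos in PD-1int, Jund in PD-1hi and Fosl2 in PD-1hi cells, all against naive cells, and Irf8 between the PD-1 subsets. No difference that passed changed direction. Batf in memory cells passed without the 40% dimmest genes (limma adjusted p = 0.0394), with quantile normalization (0.0487) and with array weights (0.048), and Fosl2 in PD-1hi cells without the 40% dimmest genes (0.0405) and with quantile normalization (0.0393). Counts of the 10 genes that passed were within 1.5 times of those reported, except that PD-1hi against PD-1int gave 2 with only the 8 arrays compared and 2 with all probe sets of a gene averaged, Irf8 being the addition. With 1 array left out the counts ranged from 5 to 6 (memory against naive), 7 to 8 (PD-1int against naive) and 6 to 8 (PD-1hi against naive), and were 4, 5 and 1 throughout in the other 3 comparisons. With the replicate number as a block they were 5, 7, 6, 4, 5 and 1 in the 6 comparisons, as without it, and over all genes the block gave 2633 calls for memory against naive and 748 for PD-1hi against PD-1int, against 2601 and 734. The numbers recur in the titles of all 4 subsets, and whether they mark the same mouse is not stated, so they were not treated as a pairing. Deviations of same-numbered arrays correlated at -0.05 to 0.15 over all genes (24 pairs, median 0.04, 2 over 0.1). Arrays of different numbers correlated at -0.17 to 0.20 (72 pairs, median -0.01). Of 16 arrays, 10 correlated best with an array of their own number, although more candidates carried another number. The B-cell and CLL marker mean was highest on array 4 in every subset (6.17, 6.30, 6.12 and 6.08). Paired samples are therefore possible, and this was not tested further. Of 612 alternative values of the 36 list counts, 22 differed by more than 1.5 times; those from leaving out 1 array are given beside the lists, and the cause was not tested. The lack of detection calls and the 4 arrays per subset limit what can be said of Batf3, Jund, Fos and Fosb.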
